A study of Arabidopsis thaliana with 4 samples.

Results

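The 10 stress and senescence NAC genes of Arabidopsis thaliana described here were ANAC019, ANAC055, ANAC072, ATAF1, ATAF2, ANAC032, ANAC102, ORE1, NAP and ANAC047, taken by gene identifier from the 32833 genes of the count table. All 10 were present and all 10 had enough counts to be tested, among 19834 genes tested. Stranded mRNA libraries had been sequenced from 7-day-old seedlings of the Col0 ecotype grown in long days. The 2 groups were seedlings labelled cml39 -/-, for mutants of the calmodulin-like calcium sensor CML39, and seedlings labelled WT, with 2 libraries each, named cml39 1, cml39 2, wt 1 and wt 2. The labels name neither the mutant allele nor the number of lines, and do not say whether libraries came from separate cultures, so p-values measure the spread between these libraries, which may be technical. The series' title concerns seed and fruit development and germination, and the seedling comparison asks which transcripts differ from WT.

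NAC proteins are plant transcription factors that bind DNA through a conserved N-terminal NAC domain and act through a variable C-terminal region. The 10 genes are among the NAC genes known for responses to drought, salt, abscisic acid, jasmonate and wounding or for driving leaf senescence. Leaf senescence is the ordered breakdown of chlorophyll, protein and nucleic acid in ageing leaves. Several act in sequence: ethylene signalling raises ORE1, microRNA miR164 cuts its mRNA, and ORE1 and NAP then switch on breakdown genes.

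The libraries held 21981123 and 19821451 counts in cml39 and 24101882 and 19331639 counts in wt. Levels are normalised counts per unit of sequencing depth (CPM). The correlation of log2 CPM over genes, which are not independent replicates, was r = 0.982 within cml39 and 0.988 within wt, and 0.891 to 0.917 for pairs from different groups. CML39 itself went against the label: it had 45 and 21 counts in the libraries labelled cml39 (exact Poisson 95% intervals 32.8 to 60.2 and 13.0 to 32.1) and 0 in each library labelled wt. Set against a floor of 3 counts over the whole wt group (0.0631 CPM), the pooled cml39 level was at least 27.4-fold higher (edgeR adjusted p = 0.00218, n = 2 libraries per group). Intervals and floor cover counting error only. The names cml39 and wt therefore stand throughout for the libraries labelled so. CML39 lies at chr1:28765254-28765866 and CML38 at chr1:28766750-28768138, both on the minus strand. CML38 had 1093 and 1848 counts in cml39 and 72 and 55 counts in wt. Where the CML39 counts came from was not tested, and the labels do not name the mutant allele. Whether the labels were exchanged was not tested either, and if they were, every fold change given here would change sign. Root markers were lower in the libraries labelled cml39, with 12 of 16 called lower and 0 higher. Over all tested genes 21.6% were called lower and 19.3% higher. The root markers summed to 1090 and 1353 CPM in cml39 against 4691 and 4151 CPM in wt. Most of each sum was PYK10, with 973.2 and 1209.6 CPM in cml39 and 4292.8 and 3748.5 CPM in wt. SCR (log2 fold change 0.21), PLT1 (-0.40), PLT2 (-0.86) and MYB36 (-0.23) did not pass. Leaf photosynthesis markers summed to 80804 and 75685 CPM in cml39 and 55992 and 58423 CPM in wt, with 4 of 11 called higher and 1 lower, and 2 called higher when either cml39 library was left out or with upper quartile scaling. Within the leaf sums LHCB1.3 alone had 30020 and 25676 CPM in cml39 and 14270 and 16316 CPM in wt. The median log2 fold change of the leaf list was 0.22, and the gene called lower was RBCS2B (-0.66). In whole seedlings fewer cells of a type and less RNA per cell cannot be told apart. The part of tissue make-up in any result below was not tested. Library cml39 2 stood apart in seed transcripts: the 10 seed markers summed to 4.78 and 162 CPM in cml39 1 and cml39 2, against 2.74 and 3.35 CPM in wt. Among flower markers PISTILLATA (PI) was higher in cml39 (log2 fold change 4.57 ± 0.19, standard error), SEP3 did not pass (0.18), and AP3 and AP1 had at most 2 counts in any library.

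Every one of the 10 NAC genes was higher in the libraries labelled cml39. The 10 were chosen with earlier results of these data known, so this count carries no test. Higher calls were made for 19.3% of all tested genes, lower calls for 21.6% and calls of either kind for 40.9%, so the background was broad (edgeR's quasi-likelihood F test, Benjamini-Hochberg adjusted over all tested genes, threshold 0.05). The log2 fold changes of cml39 over wt spanned 0.73 to 2.76 with a median of 1.36, beside a median of -0.0052 over all tested genes. In none of the 10 did the groups overlap, and 36.0% of all tested genes likewise had both cml39 libraries above both wt libraries. Summed over the 10 genes, the level was 459 and 533 CPM in cml39, against 164 and 205 CPM in wt. Without cml39 2, the library with seed transcripts, all 10 passed; without wt 1, 6 of 10 passed, and ANAC019, ANAC055, ANAC032 and NAP did not. Calls over all tested genes were also fewer without wt 1, with 10.1% higher and 11.0% lower.

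**Figure D1:**
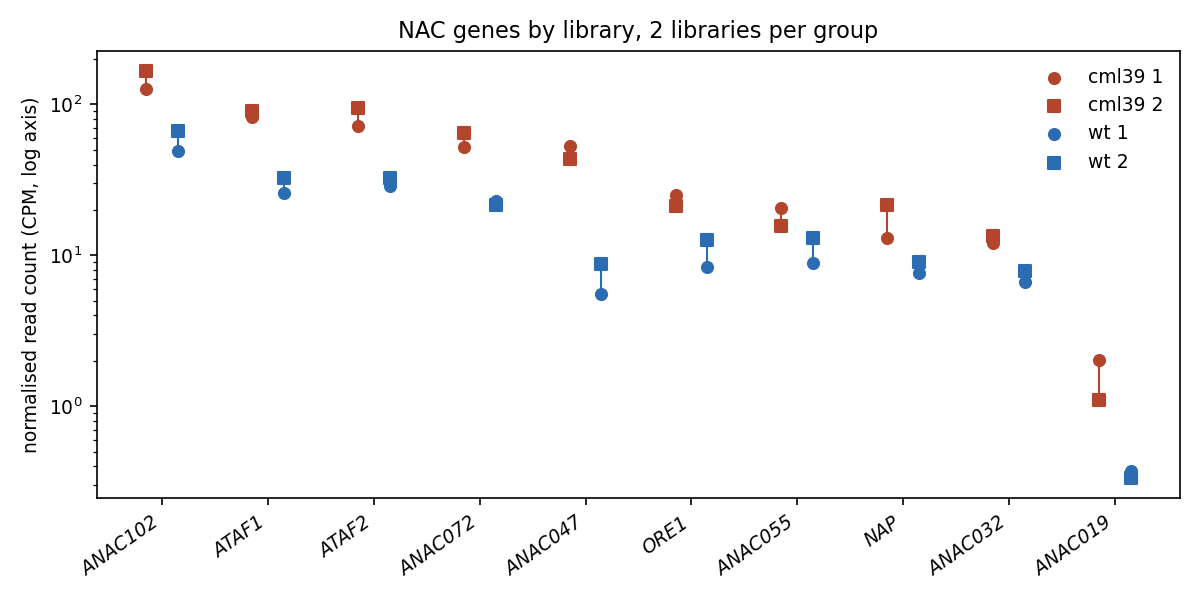
Level of each of the 10 NAC genes in CPM on a log axis, with 1 point per library, cml39 libraries left of wt libraries. In each gene both cml39 points lie above both wt points, with the widest gap in ANAC047 (52.7 and 43.7 CPM in cml39, 5.51 and 8.80 CPM in wt).

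ANAC047, also called SPEEDY HYPONASTIC GROWTH (AT3G04070, chr3:1061300-1063234, minus strand of TAIR10.1) for its role in the upward bending of petioles under waterlogging, had the largest fold change of the 10. It measured 52.7 and 43.7 CPM in cml39 and 5.51 and 8.80 CPM in wt. The lowest cml39 library thus lay well above the highest wt library. The fold was 6.79 (log2 fold change 2.76 ± 0.22, edgeR adjusted p = 0.000142). Per length of transcript it ranked 5 among the 10 in cml39, at 29.9 RPKM (CPM per kilobase of exon), and 8 in wt, at 4.44 RPKM.

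ORE1 (AT5G39610, chr5:15858398-15859911, minus), named after its long-lived oresara mutant, is a central activator of leaf senescence and cell death. Its levels were 25.3 and 21.2 CPM in cml39 and 8.44 and 12.7 CPM in wt, without overlap. The log2 fold change was 1.14 ± 0.21 (edgeR adjusted p = 0.00445). NAP (AT1G69490, chr1:26122080-26123514, plus), which activates the abscisic aldehyde oxidase gene AAO3 in ageing leaves, had 13.0 and 21.4 CPM in cml39 and 7.69 and 8.99 CPM in wt. The cml39 libraries differed from each other more than the wt libraries did, and still lay above them. NAP's log2 fold change was 1.05 ± 0.25 (edgeR adjusted p = 0.0124), and it did not pass without wt 1 (adjusted p = 0.0697).

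miR164 pairs with the coding part of ORE1 mRNA, and its sequence and the sites it could pair with are shown because ORE1 was the sole member carrying one. They were read from the TAIR10.1 reference, miRNA genes as annotated by RefSeq, with capitals marking the seed (bases 2 to 8) in the miRNA and the bases that face it in each site. The ORE1 site lies at chr5:15858797-15858817 on the minus strand and the miR164a sequence at chr2:19520770-19520790 on the plus strand.
ath-miR164a: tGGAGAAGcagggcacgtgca
ath-miR164c-5p: tGGAGAAGcagggcacgtgcg
ORE1: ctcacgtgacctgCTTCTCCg
NAC1: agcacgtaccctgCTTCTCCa
ANAC080: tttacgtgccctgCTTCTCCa
ANAC100: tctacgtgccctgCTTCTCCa
AT3G12977: agcatgtaccctgCTTCTCCa
CUC2: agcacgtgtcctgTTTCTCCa
Among 114 NAC domain genes, 7 had a 21-base site with at most 4 mismatches, ORE1 having 4, NAC1, ANAC080 and ANAC100 having 2, and AT3G12977, CUC1 and CUC2 having 3. The other 9 members had at least 8 mismatches at their best position. The listed miR164 targets other than ORE1 that were tested did not pass: ANAC100 (log2 fold change -0.62), CUC2 (0.91), NAC1 (0.08) and ANAC080 (-0.07) had adjusted p from 0.232 to 0.805, and their median was 0.0054. AT3G12977, which was not on that list and is named after its values were seen, had 6.19 and 4.71 CPM in cml39 and 9.11 and 8.13 CPM in wt and was called lower (-0.66 ± 0.22, edgeR adjusted p = 0.0422). That call was lost with DESeq2 (adjusted p = 0.0875) and without cml39 2 (0.120), wt 1 (0.239) or wt 2 (0.101). The MIR164 precursor genes had 0 counts in cml39 libraries, and MIR164B had 3 and 10 counts in wt 1 and wt 2. MIR164A and MIR164C had 0 counts in the wt libraries as well, and none of these genes was tested. The level of mature miR164 was not measured in these mRNA libraries.

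The 4 genes of the ATAF subgroup had a median log2 fold change of 1.40. ANAC102 (AT5G63790, chr5:25526509-25528281, minus), known in low-oxygen responses of germinating seed, had 126 and 166 CPM in cml39 and 48.9 and 66.9 CPM in wt (log2 fold change 1.34 ± 0.18, edgeR adjusted p = 0.00123). ATAF1 (AT1G01720, chr1:267993-269819, plus), an abscisic acid-related factor that activates ORE1 in leaves, had 83.0 and 90.3 CPM in cml39 and 26.0 and 32.5 CPM in wt (1.57 ± 0.14, adjusted p = 0.000190). Its raw count was the same in the cml39 libraries, 1650 each, and 692 and 680 in wt. ATAF2 (AT5G08790, chr5:2858849-2860558, minus), which responds to wounding and pathogens, had 72.5 and 95.3 CPM in cml39 and 28.6 and 32.7 CPM in wt (1.45 ± 0.15, adjusted p = 0.000405). These levels of ANAC102, ATAF1 and ATAF2 were each at least 2-fold higher in cml39 than in wt on average, a size reached by 6.57% of tested genes together with a higher call. ANAC032 (AT1G77450, chr1:29099839-29101759, plus), a close relative of ATAF1 and a factor in stress and ageing, had 12.0 and 13.5 CPM in cml39 and 6.68 and 7.84 CPM in wt. Its log2 fold change of 0.82 ± 0.18 passed (edgeR adjusted p = 0.00923), but not without wt 1 (adjusted p = 0.0839).

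Levels of the trio ANAC019, ANAC055 and ANAC072, which were first isolated by their binding to the promoter of the drought gene ERD1 and act downstream of abscisic acid and jasmonate, were less uniform. ANAC072 (also RD26, AT4G27410, chr4:13707192-13709170, minus) had 51.9 and 64.4 CPM in cml39 and 23.1 and 21.7 CPM in wt, a clear separation (log2 fold change 1.38 ± 0.14, edgeR adjusted p = 0.000312). ANAC019 (AT1G52890, chr1:19696923-19698482, minus) was scarce, with 40 and 20 counts in cml39 and 10 and 7 in wt, or 2.01 and 1.09 CPM in cml39 and 0.375 and 0.335 CPM in wt. Its fold of 4.32 (2.11 ± 0.53, adjusted p = 0.0155) rests on these few counts. With wt 1 left out its adjusted p was 0.0993, and with wt 2 left out 0.0937. ANAC055 (AT3G15500, chr3:5234457-5236196, plus) had the smallest change, with 20.5 and 15.6 CPM in cml39 and 8.96 and 13.0 CPM in wt. The nearest cml39 and wt libraries, 15.6 and 13.0 CPM, were close. ANAC055 passed narrowly (0.73 ± 0.22, edgeR adjusted p = 0.0323) and did not pass without cml39 1 (0.0861), without wt 1 (0.203) or with upper quartile scaling (0.0679).

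Promoters were examined for the abscisic acid and light response core ACGTG, the G-box CACGTG, and CATGTG, a motif reported for NAC binding in the ERD1 promoter, on both strands of the 300 bases before the annotated gene start. CACGTG was in 3 of 10 member windows (7.09% of 27444 protein-coding genes), ACGTG, which CACGTG contains, in 5 of 10 (25.6%), and CATGTG in 0 of 10 (13.1%). These matches are descriptions of letters and not sites of binding. The windows of the 3 members with a G-box and of ANAC047, the member with the largest change, are printed in TAIR10.1 coordinates, with capitals marking each ACGTG or CACGTG, or its reverse complement: ANAC019 at chr1:19698483-19698782 (minus), ANAC032 at chr1:29099539-29099838 (plus), NAP at chr1:26121780-26122079 (plus) and ANAC047 at chr3:1063235-1063534 (minus).
ANAC019: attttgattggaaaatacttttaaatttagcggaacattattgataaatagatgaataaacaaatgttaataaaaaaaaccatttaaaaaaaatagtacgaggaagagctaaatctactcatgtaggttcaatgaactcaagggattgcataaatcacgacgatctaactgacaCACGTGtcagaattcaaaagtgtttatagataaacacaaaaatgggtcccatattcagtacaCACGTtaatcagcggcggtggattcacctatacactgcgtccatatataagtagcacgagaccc
ANAC032: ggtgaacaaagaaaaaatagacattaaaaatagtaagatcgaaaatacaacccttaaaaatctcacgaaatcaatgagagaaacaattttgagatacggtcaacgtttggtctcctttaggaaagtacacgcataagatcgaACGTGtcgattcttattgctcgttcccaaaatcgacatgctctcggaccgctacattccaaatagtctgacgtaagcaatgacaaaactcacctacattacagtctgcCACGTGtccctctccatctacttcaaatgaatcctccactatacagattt
NAP: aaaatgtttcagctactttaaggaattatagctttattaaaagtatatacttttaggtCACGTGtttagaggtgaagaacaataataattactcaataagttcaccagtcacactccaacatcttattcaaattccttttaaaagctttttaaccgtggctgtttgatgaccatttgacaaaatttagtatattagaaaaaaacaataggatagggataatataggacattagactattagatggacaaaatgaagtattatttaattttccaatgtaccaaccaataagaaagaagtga
ANAC047: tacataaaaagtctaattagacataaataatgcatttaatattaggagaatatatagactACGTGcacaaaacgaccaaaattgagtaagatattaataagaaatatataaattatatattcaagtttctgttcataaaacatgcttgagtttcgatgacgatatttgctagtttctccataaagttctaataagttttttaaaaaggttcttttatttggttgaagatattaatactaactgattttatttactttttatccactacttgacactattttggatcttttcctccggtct
ANAC019 has a CACGTG 126 bases and ANAC032 50 bases before the start, and NAP 242 bases before it. The rest of the members, including ANAC055, ATAF1, ATAF2, ANAC102 and ORE1, had none of the 3 motifs, apart from ACGTG in ANAC072 and ANAC047.

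**Figure D2:**
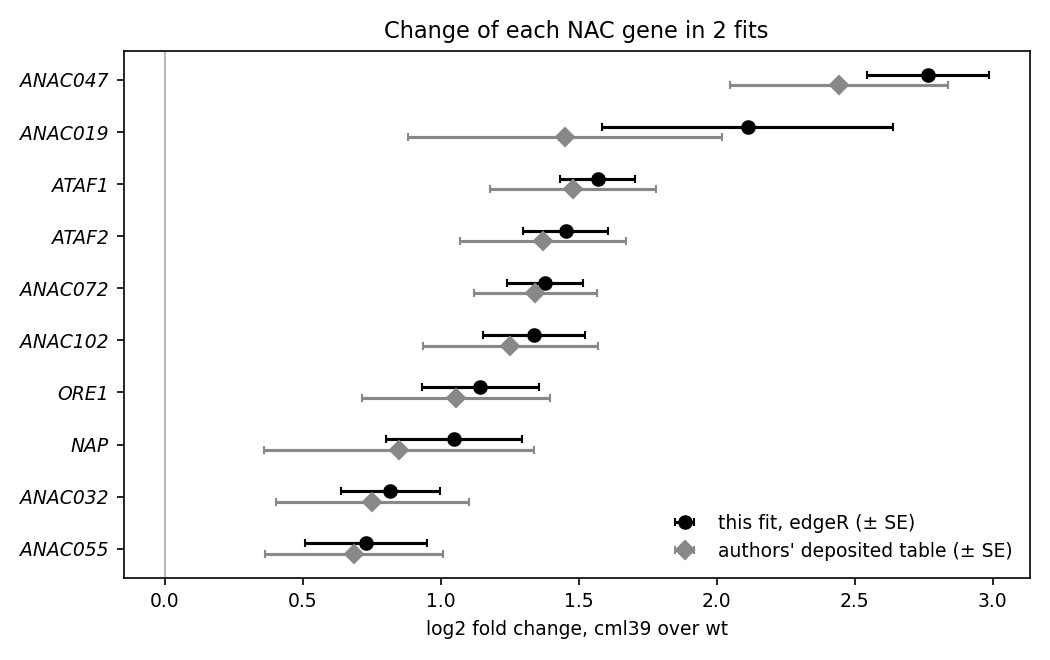
Log2 fold change of cml39 over wt for each of the 10 genes from the fit of these 4 libraries and from the authors' deposited table, with bars of 1 standard error. All 10 values are above 0 in each source, from 0.73 (ANAC055) to 2.76 (ANAC047) in the fit of these libraries, with ANAC019 and NAP showing the widest bars.

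The authors' deposited table called 6 of the 10 genes higher at an adjusted p under 0.05. It called 7.23% of its 20717 genes with an adjusted p higher. The authors' deposited table gave ANAC047 a log2 fold change of 2.44 ± 0.39 (adjusted p = 6.92e-08), ANAC072 1.34 ± 0.22 (1.87e-07) and ATAF1 1.48 ± 0.30 (3.37e-05). ATAF2, ANAC102 and ORE1 also passed in the authors' deposited table, at adjusted p = 0.000167, 0.00140 and 0.0174. ANAC019 (adjusted p = 0.0612), ANAC032 (0.132), ANAC055 (0.135) and NAP (0.249) did not pass in the authors' deposited table. Libraries behind that table may differ from the 4 used here, since its mean normalized counts are not those of these libraries. Each of the 10 log2 fold changes there was smaller than in the edgeR fit, with ANAC019 at 1.45 beside 2.11. DESeq2 and edgeR may estimate fold changes differently, so the sizes may not be like measures.

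**Figure D3:**
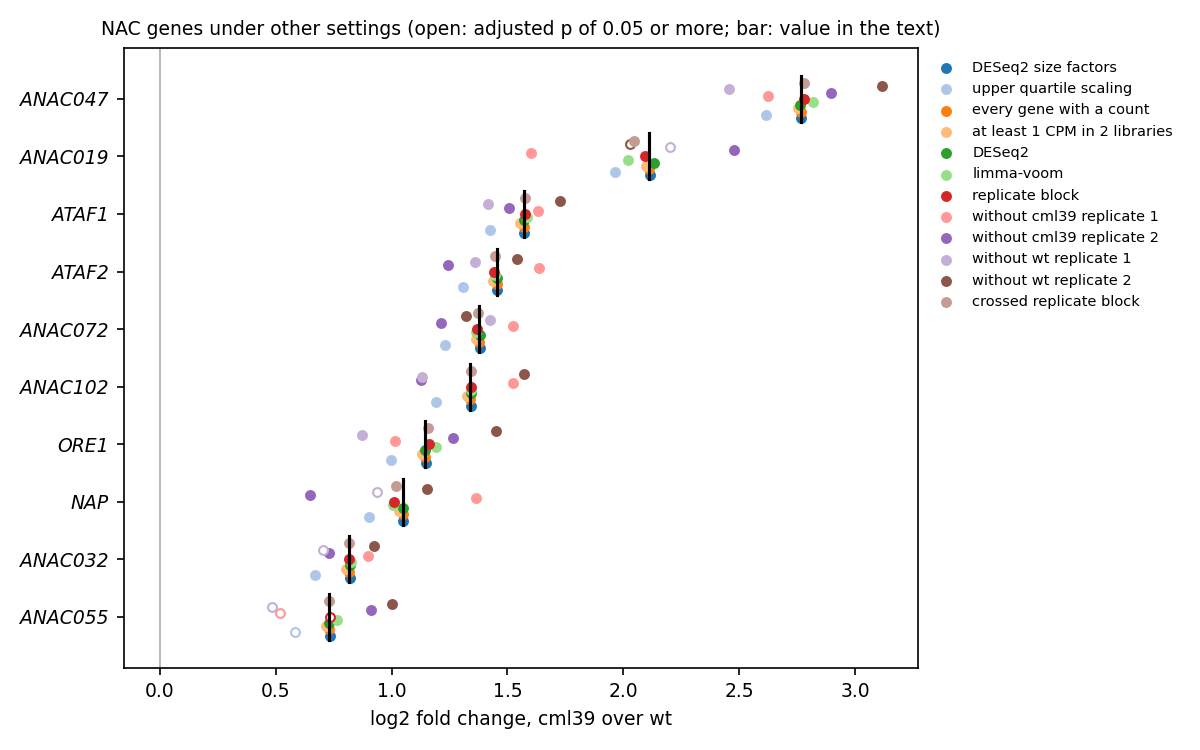
Log2 fold change of each member under the alternative processings tried, cml39 over wt, with filled and open marks for values that passed and did not pass an adjusted p of 0.05. The black bar is the value given in the text. Values stay above 0 throughout, from 0.48 (ANAC055 without wt 1) to 3.12 (ANAC047), and the open marks fall on ANAC019, ANAC055, ANAC032 and NAP.

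Per length of transcript, the order in cml39 ran from ANAC102 at 92.3 RPKM through ATAF2 (54.9 RPKM), ATAF1 (52.4), ANAC072 (30.7), ANAC047 (29.9), ORE1 (17.7), NAP (13.8), ANAC055 (11.7) and ANAC032 (7.38) to ANAC019 at 1.14 RPKM. Of these neighbours, ATAF2 and ATAF1, ANAC072 and ANAC047, ORE1 and NAP, and NAP and ANAC055 overlapped in their libraries. Levels in wt ran from 36.5 RPKM for ANAC102 through ATAF2 (20.0), ATAF1 (17.7), ANAC072 (11.8), ORE1 (8.06), ANAC055 (7.11), NAP (6.66), ANAC047 (4.44) and ANAC032 (4.20) to 0.261 RPKM for ANAC019. The wt neighbours that overlapped were ATAF2 and ATAF1, ORE1 and ANAC055, ANAC055 and NAP, and ANAC047 and ANAC032. ANAC102 was therefore the most abundant and ANAC019 the least abundant in each group, and ANAC047 was the member whose place differed most.

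Members that are similar in sequence could share reads. The highest coding identity between any pair was 75.9%, for ANAC019 and ANAC055, with a longest identical run of 23 bases. The longest run in any pair was 32 bases, for ANAC055 and ATAF2, and ATAF1 and ANAC032, with 63.6% identity, shared a run of 26 bases. ATAF2, ANAC102 and ATAF1 overlap genes on the opposite strand by 158, 85 and up to 344 bases, and the strand setting of the authors' counting is not given in the sources used here. Those opposite-strand neighbours had 132 and 166 counts in cml39 and 177 and 149 in wt (beside ATAF2), and 723 and 899 in cml39 and 821 and 598 in wt (beside ANAC102). Beside ATAF1, AT1G01725 had 85 and 84 counts in cml39 and 61 and 81 in wt, and AT1G04043, a long non-coding RNA, had 3 and 0 counts in cml39 and 0 in each wt library.

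Several genes of chlorophyll breakdown are known targets of these factors. Of 9 chlorophyll breakdown genes, 7 were called higher, 0 lower and 2 did not pass, with a median log2 fold change of 1.12. The share called higher was 77.8%, beside 19.3% of all tested genes. The gene lists were chosen with earlier results of these data known, so the shares called carry no test. MES16, a methylesterase acting on chlorophyll breakdown products, had 54.1 and 69.0 CPM in cml39 and 7.76 and 10.2 CPM in wt (log2 fold change 2.78 ± 0.18, edgeR adjusted p = 7.92e-05). PAO, which opens the chlorophyll ring, had a log2 fold change of 1.12 ± 0.11 (0.000301), the chlorophyll b reductase NYC1 1.23 ± 0.13 (0.000341) and the pheophytinase PPH 1.17 ± 0.14 (0.000690). Of the rest, ACD2, NYE1 and NYE2 rose by 0.61, 0.71 and 1.20, while HCAR (0.38) and NOL (-0.08) did not pass. Without wt 1 NYE1 (adjusted p = 0.0826) and NYE2 (0.218) did not pass, and NYE2 was also lost without wt 2 (0.0638) and with DESeq2 (0.0610).

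The senescence effectors moved in opposite directions. Of 14, 12 were tested: 7 were higher, 4 lower and 1 did not pass, with a median of 0.64. The share called higher was 58.3%, beside 19.3% of all tested genes, of which 21.6% were called lower. Since this list too was chosen with earlier results known, its share carries no test. With DESeq2 or with upper quartile scaling, 6 genes of the list were called higher. SAG21 (log2 fold change 1.35) did not pass with DESeq2 (adjusted p = 0.0687). With upper quartile scaling AALP (0.24) did not pass (edgeR adjusted p = 0.0896). AAO3, the NAP target that makes abscisic acid, had a log2 fold change of 1.09 ± 0.11 (edgeR adjusted p = 0.000319). For SAG20 it was 0.88 ± 0.15 (edgeR adjusted p = 0.00342). Lower were RNS3, a ribonuclease that ORE1 is known to activate, at -2.41 ± 0.36 (0.00170), the glutamine synthetase GLN1;4 at -2.94 ± 0.52 (0.00349), BFN1, a nuclease and known ORE1 target, at -1.82 ± 0.35 (0.00496), and CV at -1.48. RNS3 had 0.755 and 1.59 CPM in cml39 and 6.53 and 5.88 CPM in wt, and BFN1 0.855 and 1.09 CPM in cml39 and 3.83 and 3.06 CPM in wt. Without wt 1, BFN1 (adjusted p = 0.0605) and CV (0.0981) did not pass. SAG12, the late marker of leaf senescence, had 0 counts in all 4 libraries.

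Shares of abscisic acid and drought genes called were near those of all tested genes. Of 18 tested abscisic acid and drought genes, 4 were higher, 4 lower and 10 did not pass, or 22.2% in each direction beside 19.3% higher and 21.6% lower over all genes, with a median log2 fold change of 0.018. ERD1, whose promoter the ANAC019 trio was isolated on, had a log2 fold change of 1.45 ± 0.16 (edgeR adjusted p = 0.000461), the phosphatase ABI1 0.93 ± 0.12 (0.000864), RD20 2.68 and RD29B 0.85. RD22 was lower at -1.54 ± 0.10 (8.93e-05), as were LTI30 (-0.94 ± 0.16), KIN2 (-1.21) and ERD10 (-0.62). ERD1 measured 479 and 415 CPM in cml39 and 139 and 188 CPM in wt. With cml39 1 left out 7 genes of the list were called higher, and with wt 1 left out RD29B (adjusted p = 0.0988) and ERD10 (0.107) did not pass. Of 5 tested jasmonate and salicylate targets, the jasmonate genes VSP1, LOX2 and VSP2 were lower (-4.85 ± 0.62, -2.32 ± 0.29 and -2.71 ± 0.56). SAGT1, a salicylate glucosyltransferase, was higher by 0.39 ± 0.10 (edgeR adjusted p = 0.0192). That call was lost without cml39 1 (adjusted p = 0.0693), wt 1 (0.115) or wt 2 (0.0776) and with upper quartile scaling (0.0912). ICS1 did not pass, and BSMT1 had 0 counts.

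Among 22 upstream regulators and partners, 7 were higher, 5 lower and 10 did not pass, with a median log2 fold change of 0.13. The share called higher was 31.8%, beside 19.3% of all tested genes, of which 21.6% were called lower. It carries no test either, as this list was chosen with earlier results known. RAV1, a senescence activator, rose by 1.26 ± 0.19 (edgeR adjusted p = 0.00194). ZFHD1, the partner of ANAC019 at ERD1, was lower (-1.11 ± 0.17, 0.00207), as was PIF4 (-0.60 ± 0.10, 0.00240), while its relative PIF5 was higher (0.54 ± 0.10, 0.00379). MYC2, the jasmonate factor upstream of ANAC019 and ANAC055, had a log2 fold change of 0.29 and did not pass. Of these 22, 3 were called higher and 2 lower without wt 1, and 3 lower without wt 2 or with DESeq2.

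**Figure D4:**
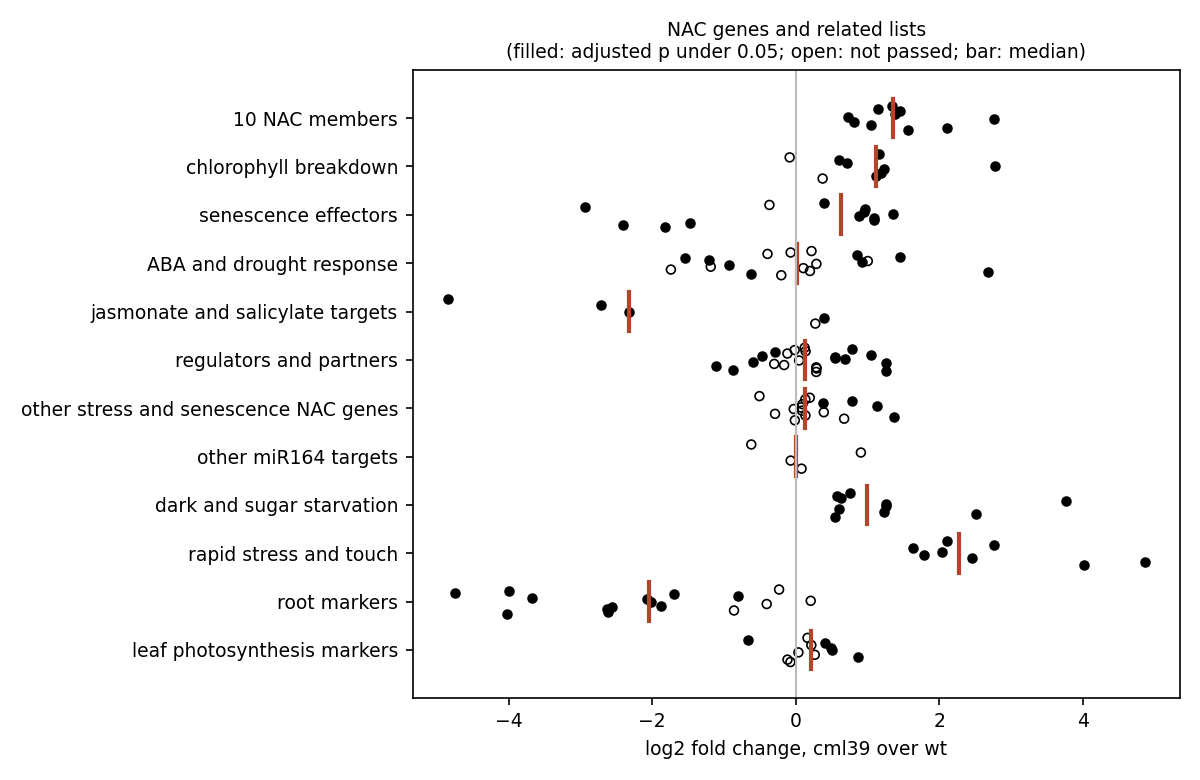
Log2 fold change of every tested gene of each list shown, cml39 over wt, with filled points for genes that passed, open points for those that did not, a bar at each list median and a line at 0. The lists of the 10 NAC genes, the dark and sugar starvation genes and the rapid stress and touch genes hold values above 0 only, while the root markers reach from 0.21 down to -4.75.

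The lists of dark and sugar starvation genes and of rapid stress and touch genes were higher as well. These lists were chosen with earlier results of these data known, so their counts carry no test. For comparison, 19.3% of all tested genes were called higher. All 10 of the dark and sugar starvation genes were called higher, with a median log2 fold change of 0.99 and MIOX4 at 3.76 ± 0.15 (edgeR adjusted p = 2.58e-05), and without wt 1 this was 7 of 10. All 8 rapid stress and touch genes were higher, with a median of 2.28, led by CML38 at 4.87 ± 0.32 (7.92e-05) and TCH4 at 2.76 ± 0.12 (2.65e-05).

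Other members of the NAC family give the comparison with the rest of the series. Of 104 other genes with the NAC domain, 64 were tested: 10 were called higher (15.6%), 18 lower and 36 did not pass, with a median of -0.18. This set was added after values were seen, and the 10 factors were chosen with results known, so the difference from the 10 of 10 called higher carries no test. The other NAC genes had 5 higher and 6 lower calls without wt 1, 6 higher and 9 lower calls without wt 2, and 6 higher calls with upper quartile scaling. Among the listed stress and senescence NAC genes outside the 10, 4 of 16 were called higher and 0 lower. Their median log2 fold change was 0.13, and with upper quartile scaling 2 of the 16 were called higher. Over all tested genes, 19.3% were called higher and 21.6% lower, so the higher calls were near the background. The 4 genes called were ANAC062 (1.14 ± 0.12, edgeR adjusted p = 0.000368), ANAC016 (1.37 ± 0.26, 0.00464), ANAC082 (0.38 ± 0.10, 0.0204) and VNI2 (0.78 ± 0.24, 0.0313). ANAC082 and VNI2 did not pass without wt 1 (adjusted p = 0.0903 and 0.138) or with upper quartile scaling (0.107 and 0.0629), nor ANAC082 without wt 2 (0.153) or VNI2 without cml39 1 (0.0713). ORS1, the nearest relative of ORE1, stood at 0.07 and JUB1, a repressor of ageing, at 0.39, and neither passed.

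**Figure D5:**
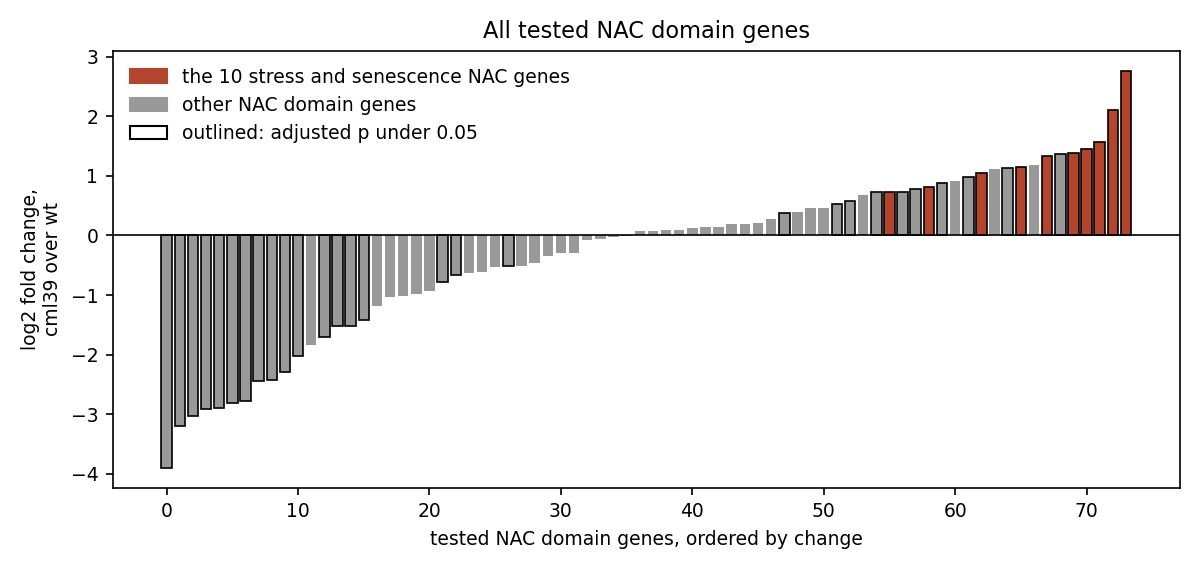
Log2 fold change of cml39 over wt for all tested NAC domain genes, ordered by value, with the 10 stress and senescence genes coloured and called genes outlined. The 10 lie between 0.73 and 2.76, and the other NAC genes reach from 1.37 down to -3.90.

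NAC genes near a member on the chromosome were mixed. NARS1, 7235 bases from ANAC055 with 1 gene between them, was lower (-0.78 ± 0.14, edgeR adjusted p = 0.00361), where ANAC055 was higher. NAM, 6333 bases from ANAC019, was higher (0.87 ± 0.25, 0.0258) but did not pass without cml39 2 (adjusted p = 0.0724), wt 1 (0.138) or wt 2 (0.127), with upper quartile scaling (0.0516) or with DESeq2 (0.0584). ANAC046, 6103 bases from ANAC047, had a log2 fold change of 0.09 (adjusted p = 0.749).

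Profiles most like that of ANAC047 over the 4 libraries, by Euclidean distance of mean-centred log2 CPM, were those of DRM1 (distance 0.139), UGT84A3 (0.146), AT1G36060 (0.146), WRKY48 (0.162) and IP5PII (0.182). UGT84A3 measured 62.2 and 58.4 CPM in cml39 and 6.56 and 10.7 CPM in wt, and WRKY48 23.5 and 18.4 CPM in cml39 and 2.66 and 4.07 CPM in wt. DRM1 rests on 14 and 12 counts in cml39 and 0 and 1 in wt.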

How the data were processed

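Strand-specific mRNA libraries were made from 100 mg of seedling tissue with the TruSeq kit, per the labels' protocols. Per the submitters' processing notes the build was TAIR10 and the tools were STAR 2.5.2b, CASAVA 1.8, DESeq2 1.14.1 and FastQC; their roles, the strand setting and the annotation are not given in the sources used here. The deposited table of raw gene counts was whole numbers for the 4 libraries. The authors' deposited DESeq2 table gives a signal column (mean normalized count), log2 fold change and standard error on the log2 scale, a Wald score, and a p-value and adjusted p-value, all per the file headers. No adjusted p was given there for 3254 genes.

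Counts were fitted in R 4.3.3 with edgeR 4.0.16 (filterByExpr, trimmed mean of M values, quasi-likelihood F test, two-sided, group only), and p-values were adjusted by Benjamini-Hochberg over 19834 genes. Each standard error is the size of the log2 fold change divided by the root of F. CPM used scaled library sizes, and RPKM the union exon length in TAIR10.1. Motifs, miR164 sites and coding identity were read from TAIR10.1 with Biopython 1.88. The fit was tested on simulated data. The members and gene lists were chosen with earlier results of these data known. Named genes were the 10 members, up to 4 genes of each list by lowest p and those that small counts needed, CML39, and the 5 genes closest to the member with the largest change. ACD2, NYE1, NYE2, MYC2, SAG12, SAG21, AALP, ORS1, JUB1 and AT3G12977 lie outside that rule and were chosen after their values were seen. Alternatives were DESeq2 1.42.0 and its size factors, upper quartile scaling, limma-voom (limma 3.58.1), other low-count filters, a replicate block and each library left out; the other NAC domain genes were added after the data were seen.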

Additional observations from a re-analysis of the deposited data

How the results depend on the processing

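Among 120 alternative results for the 10 genes, 112 kept their direction and side of the threshold, 8 did not pass and none changed direction. Over the alternatives, 10 genes were called higher with DESeq2, limma-voom, DESeq2 size factors and both other filters, and 9 with upper quartile scaling; leaving out 1 library gave 6 to 10, the 6 without wt 1. All genes called numbered 8107, of which 3822 were higher and 4285 lower; upper quartile scaling gave 2704 higher and 5403 lower and shifted the median of all genes to -0.153, while leaving out 1 library gave 4177 (without wt 1, 1997 higher and 2180 lower) to 8364 calls, DESeq2 6994 and limma-voom 8135. Called list genes numbered 84 of 138, and 60 to 87 with a library left out; the cause was not tested. The replicate numbers are not said to pair the libraries, and deviations of same-numbered libraries correlated at r = -0.118. With the replicate number as a block, 6744 genes were called, 9 of the 10 NAC genes (ANAC055 at adjusted p = 0.0520) and 75 list genes, among them 1 of 11 leaf markers called higher, and NYE2 (adjusted p = 0.0542), SAGT1 (0.0510), NAM (0.0577) and AT3G12977 (0.0616) did not pass; the crossed pairing, chosen after seeing the data, gave 8696 genes and 10 of 10. Counts limit ANAC019 most, at 7 to 40 counts per library.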
